A study of Homo sapiens with 192 samples.

Results

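The long arm of chromosome 1 was compared with the short arm in plate-based snATAC-seq of HAP1 cells, a near-haploid human line derived from a chronic myeloid leukemia. A feature is an ATAC peak widened to 1001 bp, and a feature belonged to the short arm when it started above position 1000000 and ended by 121.7 Mb of chromosome 1, and to the long arm when it started at or after 143.2 Mb (hg38). Of 77053 features seen in more than 1 nucleus, 3959 lay on the long arm and 2576 on the short arm, together 6535. Before this filter the numbers were 4108 and 2716 of 80971, and 149 (3.63%) of the long arm features and 140 (5.15%) of the short arm features were left out because 1 nucleus or none held them. The arm was chosen by measured values of these same nuclei, the number of nuclei per promoter feature in 10 Mb windows and the features per Mb, so those measures are given here as a description. The other chromosomes stand beside them for scale.

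The nuclei came from a mixture of HAP1 cells with and without the CASB label, an oligonucleotide barcode bound to membrane glycoproteins, in equal numbers. They were tagmented in bulk and sorted singly into 2 plates of 96 wells, with no further treatment named. Which nuclei carried the label is not known here, so labeled and unlabeled nuclei were analysed together. A nucleus passed when more than 300 features were seen in it, which held for 83 nuclei of plate 1 and 79 of plate 2, 162 in all. Passing nuclei had between 345 and 15351 read pairs in features, with a median of 2067.5. Separate cultures are not named, so each plate counts as 1 mixed sample, nuclei are not replicates of a condition, and no test was made.

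Chromosome 1 is the longest human chromosome. Its arms flank the centromere and a large block of constitutive heterochromatin, packed repetitive DNA that lies at the inner end of the long arm and is poorly covered by sequencing. Promoters are the stretches around transcription starts, and those of widely used genes lie in GC-rich, CpG-rich DNA that is kept free of nucleosomes, which is where the Tn5 transposase cuts most readily. The number of read pairs that a stretch gives in snATAC-seq depends on how open it is and on how many copies of it a nucleus carries, and these cannot be told apart from the counts.

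The inner limits of the rule fell in stretches with almost no features. The last feature of the short arm lay at chr1:121594459-121595459 and was seen in 4 passing nuclei, and the next outward from it at chr1:122368542-122369542 was seen in 2. On the other side, the last feature before the long arm lay at chr1:125179774-125180774 (2 nuclei) and the first inside it at chr1:143610748-143611748 (3 nuclei). At the outer end of the short arm the last feature left out, at chr1:999804-1000804, was seen in 4 nuclei, and the first kept, at chr1:1053527-1054527, in 2.

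Some wells shared features. Nuclei numbered 37 to 48, 73 to 84 and 85 to 96 of a plate held many of the same features as the nuclei 36 or 12 numbers away. Of the long arm features seen in exactly 2 nuclei, 680 of 1036 (65.6%) joined such a pair of wells, beside 659 of 909 (72.5%) on the short arm and 17777 of 25114 (70.8%) over all features. The main results are therefore also given for the 91 passing nuclei outside these wells. The cause of the sharing was not tested.

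Promoters seen in many nuclei are shown first as sequences, the 250 bases before the transcription start. The first are 3 long arm genes and 2 short arm genes, in order of the number of nuclei. Genes were taken only where a RefSeq start (GRCh38.p14 coordinates, identical to hg38 here) lay within the promoter feature. SUCO, the long arm promoter seen in the most nuclei, had no such start in the sequences used and is not shown. The cell cycle genes EXO1 and CKS1B follow, the highest and lowest of that list on the long arm. Capitals mark matches on either strand to 6 promoter motifs, which were CCAAT (NFY), CCGGAAG (ETS), GCGCATGCG (NRF1), GGGCGG (SP), AAGATGGCG (YY1) and TGACGTCA (CREB). Each sequence is written 5′ to 3′ on the strand of its gene.
ZNF672, long arm, chr1:248837974-248838223, plus strand: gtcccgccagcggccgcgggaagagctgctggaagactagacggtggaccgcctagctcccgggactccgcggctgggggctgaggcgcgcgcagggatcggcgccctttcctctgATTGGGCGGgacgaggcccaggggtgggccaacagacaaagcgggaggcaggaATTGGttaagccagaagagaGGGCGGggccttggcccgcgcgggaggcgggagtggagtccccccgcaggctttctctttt
TPR, long arm, chr1:186375254-186375503, minus strand: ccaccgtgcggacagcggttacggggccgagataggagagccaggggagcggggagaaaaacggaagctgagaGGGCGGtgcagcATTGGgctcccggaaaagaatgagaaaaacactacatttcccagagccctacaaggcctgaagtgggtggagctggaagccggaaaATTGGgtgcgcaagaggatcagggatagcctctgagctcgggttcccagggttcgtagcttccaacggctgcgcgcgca
DUSP10, long arm, chr1:221742090-221742339, minus strand: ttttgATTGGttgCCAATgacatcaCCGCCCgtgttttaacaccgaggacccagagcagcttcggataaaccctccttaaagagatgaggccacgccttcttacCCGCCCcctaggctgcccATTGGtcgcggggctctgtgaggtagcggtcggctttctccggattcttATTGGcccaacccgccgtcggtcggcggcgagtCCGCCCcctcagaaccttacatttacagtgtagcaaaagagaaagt
LEPROT, short arm, chr1:65420418-65420667, plus strand: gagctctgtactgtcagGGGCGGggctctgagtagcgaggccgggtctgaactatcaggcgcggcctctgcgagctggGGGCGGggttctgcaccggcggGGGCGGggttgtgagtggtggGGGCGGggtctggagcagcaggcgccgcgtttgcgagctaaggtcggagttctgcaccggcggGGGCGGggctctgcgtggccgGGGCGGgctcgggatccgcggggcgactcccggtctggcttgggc
JUN, short arm, chr1:58784048-58784297, minus strand: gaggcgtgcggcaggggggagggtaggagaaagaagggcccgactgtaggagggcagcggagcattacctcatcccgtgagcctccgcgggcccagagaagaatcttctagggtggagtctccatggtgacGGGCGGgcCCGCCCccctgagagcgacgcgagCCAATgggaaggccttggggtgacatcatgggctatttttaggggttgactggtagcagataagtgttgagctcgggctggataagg
EXO1, long arm, chr1:241847954-241848203, plus strand: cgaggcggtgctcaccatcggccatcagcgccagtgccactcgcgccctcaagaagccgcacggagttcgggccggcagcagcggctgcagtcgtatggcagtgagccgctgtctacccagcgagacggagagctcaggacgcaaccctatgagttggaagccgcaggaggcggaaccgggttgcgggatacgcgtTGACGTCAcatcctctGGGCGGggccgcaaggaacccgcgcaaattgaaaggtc
CKS1B, long arm, chr1:154974431-154974680, plus strand: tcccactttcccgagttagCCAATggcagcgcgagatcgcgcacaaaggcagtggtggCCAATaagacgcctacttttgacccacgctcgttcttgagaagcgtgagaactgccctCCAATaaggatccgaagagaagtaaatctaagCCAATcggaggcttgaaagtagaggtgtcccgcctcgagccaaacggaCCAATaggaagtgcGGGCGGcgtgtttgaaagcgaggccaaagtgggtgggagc

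The 7 sequences differed in which motifs they held. CCAAT or its reverse complement stood 4 times before DUSP10, 5 times before CKS1B, 2 times each before ZNF672 and TPR and once before JUN, and it was found neither before LEPROT nor before EXO1. LEPROT had 6 matches to GGGCGG, and EXO1 had 1 match to TGACGTCA, the palindrome bound by CREB and ATF factors. In ZNF672 a CCAAT match and a GGGCGG match overlap by 2 bases. A match is a description of letters, not of binding.

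The same motifs were counted before all RefSeq starts. CCAAT occurred in the 250 bases before 32.4% of 1689 long arm starts, 33.8% of 1888 short arm starts and 32% of all 34961 starts. GGGCGG occurred before 39.1%, 46.6% and 42.7% of them, CCGGAAG before 6.39%, 8.16% and 8.52%, GCGCATGCG before 1.07%, 1.01% and 1.64%, AAGATGGCG before 0.474%, 0.530% and 0.655%, and TGACGTCA before 1.24%, 1.54% and 1.65%. These shares were not tested, and those of the rarer motifs rest on few matches. The GC content of the upstream sequences had medians of 55.6% on the long arm, 60.4% on the short arm and 58.4% over all starts. Among starts within a promoter feature, CCAAT stood before 36% of 603 long arm starts and 38.9% of 525 short arm starts, and GGGCGG before 69.5% and 73.5%. Among starts in a feature seen in at least 10% of passing nuclei, CCAAT was found before 44.4% of 178 long arm starts and 48.6% of 37 short arm starts, beside 46.4% of 1713 such starts in the genome. For CCGGAAG these shares were 15.2%, 8.11% and 15.2%.

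The long arm carried more features than its length. It spans 105.8 Mb, 46.7% of the length of both arms, and held 60.6% of their features. That is 37.4 features per Mb on the long arm, 21.3 on the short arm and 25.3 over the other chromosomes without a stretch of chromosome 15 described further on. The ratio of long to short arm was 1.75, with an exact 95% interval of 1.67 to 1.84 that covers counting error only. Outside the paired wells, with the filter recomputed on those nuclei, the ratio was 2.10. It was 2.24 and 3.31 for features seen in at least 5 and 10 nuclei. The excess was larger for features with no transcription start, 30.7 against 16.5 per Mb, than for promoter features, 6.77 against 4.81 per Mb. Features overlapping a neighbour were 18.3% of the long arm and 16.7% of the short arm.

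Gene content did not differ in this way. Annotated genes numbered 25.5 per Mb on the long arm and 23.9 on the short arm, and protein-coding genes 9.29 and 8.86 per Mb. Transcript starts were slightly fewer on the long arm, 96.2 per Mb against 99.9. Of 983 protein-coding genes on the long arm, 502 (51.1%) had a start within a feature, beside 467 of 1069 (43.7%) on the short arm and 50.3% of 17672 on the other chromosomes. Bases other than N covered 105.7 Mb of the long and 120.6 Mb of the short arm, which left the ratio of features per Mb at 1.75.

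Among 24 stretches, the 2 arms and the 22 other chromosomes with autosomes and X, the long arm held the highest number of features per Mb of known bases, 37.5, followed by chromosome 7 with 31.8 and chromosome 3 with 30.9. The short arm stood at rank 17 with 21.4, between chromosome 15 (22.8) and chromosome 21 (19.7). Read pairs gave the same order at the top, with 274.2 per Mb on the long arm, 207.6 on chromosome 7 and 117.2 on the short arm. The other chromosomes were not split into arms, so these ranks set an arm chosen by its values beside whole chromosomes.

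**Figure D1:**
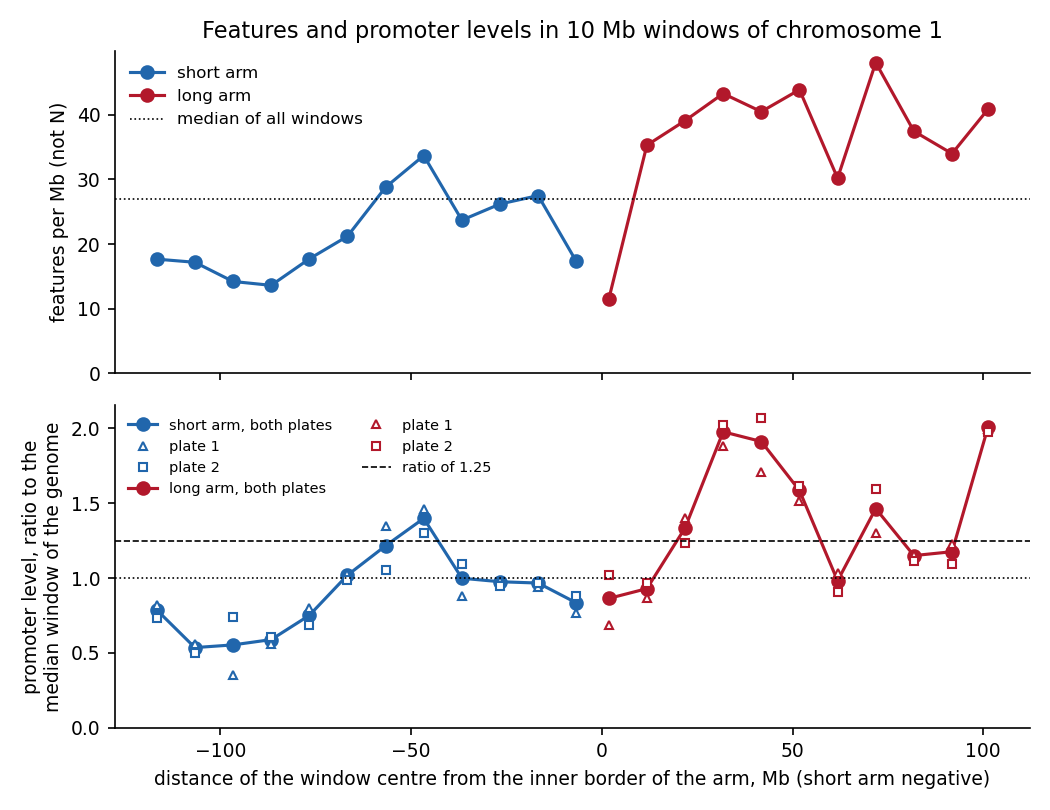
Features per Mb of bases that are not N (upper panel) and the mean number of passing nuclei per promoter feature, as a ratio to the median window of the genome (lower panel), in 10 Mb windows along both arms. The x axis is the distance of a window from the inner border of its arm in Mb, short arm negative, with the stretch between the arms left out. Open triangles and squares are plates 1 and 2, and the dashed line lies 25% above the median window. Long arm windows beyond the innermost hold 30.2 to 48.1 features per Mb, and 3 of them reach a ratio near 2.

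A promoter feature of the long arm was seen in more nuclei. A promoter feature is one that contains a GENCODE 44 transcript start, and there were 716 on the long arm and 581 on the short arm. The mean number of passing nuclei per promoter feature was 11.2 ± 8.93 (SD over features) on the long arm, 7.09 ± 5.10 on the short arm and 8.49 ± 6.25 on the other chromosomes. The medians were closer, 8, 6 and 7 nuclei, and the upper quartiles were 14.2, 9 and 11. By plate, the long arm mean was 6.66% of the 83 passing nuclei of plate 1 and 7.21% of the 79 of plate 2, and the short arm mean was 4.28% and 4.47%. The ratio of the arms was 1.58 over both plates, 1.55 in plate 1 and 1.61 in plate 2. In the 91 nuclei outside the paired wells, the means were 5.74 and 3.52 nuclei, a ratio of 1.63.

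The ratio of the arms was larger among the features seen in many nuclei. A promoter feature was counted as widely seen when at least 10% of passing nuclei, 17 of 162, held it, which was so for 10.5% of the 13750 promoter features of the genome. On the long arm it was so for 146 of 716 (20.4%), and on the short arm for 29 of 581 (4.99%). The ratio of these shares was 4.09, and 3.88 outside the paired wells. At 5% of nuclei the shares were 49.3% and 28.6%, beside 37.2% on the other chromosomes. Their ratio was smaller, 1.73, although they lay further apart in percentage points. At 20% of nuclei they were 3.77% and 0.688%, beside 0.817%. At the low end, 6.56% of long arm and 9.98% of short arm promoter features were seen in 2 nuclei. Features with no start followed with a smaller difference, with means of 5.00 nuclei on the long arm, 3.91 on the short arm and 4.33 elsewhere and a median of 3 in each. Of these, 11.6% on the long arm, 5.06% on the short arm and 7.68% elsewhere were seen in 10 or more nuclei.

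**Figure D2:**
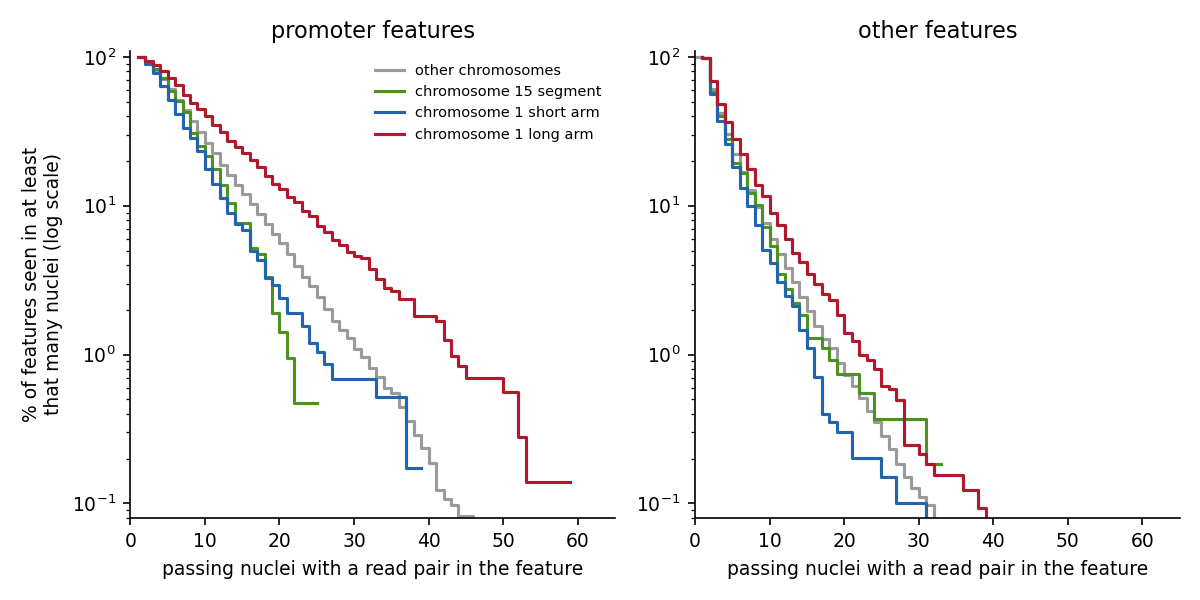
Share of features seen in at least a given number of passing nuclei (y axis, log scale, percent of features), for promoter features (left) and other features (right) of each arm, the chromosome 15 stretch and the other chromosomes. The x axis is the number of passing nuclei. At promoters, 45% of long arm, 23.2% of short arm and 31.2% of other features were seen in 10 or more nuclei.

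Promoter features were also divided by the type of gene. Promoter features with a protein-coding start had means of 11.8 nuclei on the long arm (599 features) and 7.26 on the short arm (499), and those with starts of other gene types alone had 8.50 (117) and 6.00 (82). Other features within protein-coding genes had 4.95 and 3.72 nuclei, and those outside had 5.05 and 4.10. Within nuclei, a promoter feature that was seen at all held 2 or more read pairs in 18.8% of cases on the long arm and 15.5% on the short arm, beside 16.9% on the other chromosomes.

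The long arm was not uniform. The window ratio is the mean level of the promoter features of 1 window of 10 Mb over the median of all 277 windows, 8.48 nuclei, where windows with under 20 promoter features were left out. It was more than 25% above that median in 21.7% of windows of the genome, in 6 of 11 on the long arm and in 1 of 12 on the short arm. Outside the paired wells it was so for 26.7% of windows of the genome and again for 6 of 11 on the long arm. Along the long arm from the centromere outward, the window from 140 to 150 Mb had 0.864 and the next 0.930. The ratio then rose to 1.34 between 160 and 170 Mb, 1.98 between 170 and 180 Mb, 1.91 between 180 and 190 Mb and 1.59 between 190 and 200 Mb. It was 0.982 between 200 and 210 Mb, 1.46 in the following window, 1.15 and 1.18 in the next and 2.01 in the last, beyond 240 Mb. The 3 windows near 2 were the highest of the 277. In plate 1 they had 1.88, 1.71 and 1.99, in plate 2 2.02, 2.07 and 1.98, and outside the paired wells 2.26, 2.12 and 2.13.

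Features per Mb along the long arm were lowest next to the centromere. The innermost window, which holds the end of the heterochromatin block, had 11.4 per Mb and all windows beyond it had between 30.2 and 48.1, where the median window of the genome had 26.9. Starting the long arm at 150000000 instead moved the ratio of the arms from 1.75 to 1.84 for features per Mb and from 1.58 to 1.61 for nuclei per promoter feature. The window between 200 and 210 Mb, with a promoter level at the genome median, was also the lowest of these in features per Mb.

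On the short arm the outer 40 Mb had ratios of 0.788, 0.536, 0.554 and 0.589 and between 13.6 and 17.7 features per Mb. The window from 40 to 50 Mb had a ratio of 0.751 and 17.7 features per Mb. The ratio was 1.02 between 50 and 60 Mb, 1.22 in the next window and 1.40 between 70 and 80 Mb, where features per Mb reached 33.7. It then lay between 0.835 and 1.00 up to 120 Mb. The plates differed most in the window from 20 to 30 Mb, with 0.353 in plate 1 and 0.742 in plate 2.

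The windows followed base composition. Over all 277 windows, Pearson's r between the window ratio and the GC content of the window was -0.68 and Spearman's rho was -0.70, as a description over windows that share all nuclei. Over the 12 short arm windows r was -0.80, and over the 11 long arm windows -0.65. The outer 40 Mb of the short arm had a GC content of 46.3% to 50.8%, above every long arm window (35.3% to 44.7%). Against the median of windows of other chromosomes in the same band of GC (under 38%, 38 to 40%, 40 to 42%, 42 to 45% or above), 10 of 11 long arm windows had a higher promoter level, by 1.06 to 2.05 times, and the innermost had 0.880 of it. For features per Mb, 10 of 11 were higher as well, by 1.23 to 1.64 times. Of the 12 short arm windows, 4 had a higher promoter level than their band and 0 had more features per Mb. Averaged over the bands that both arms hold, the ratio of the arms was 1.46.

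**Figure D3:**
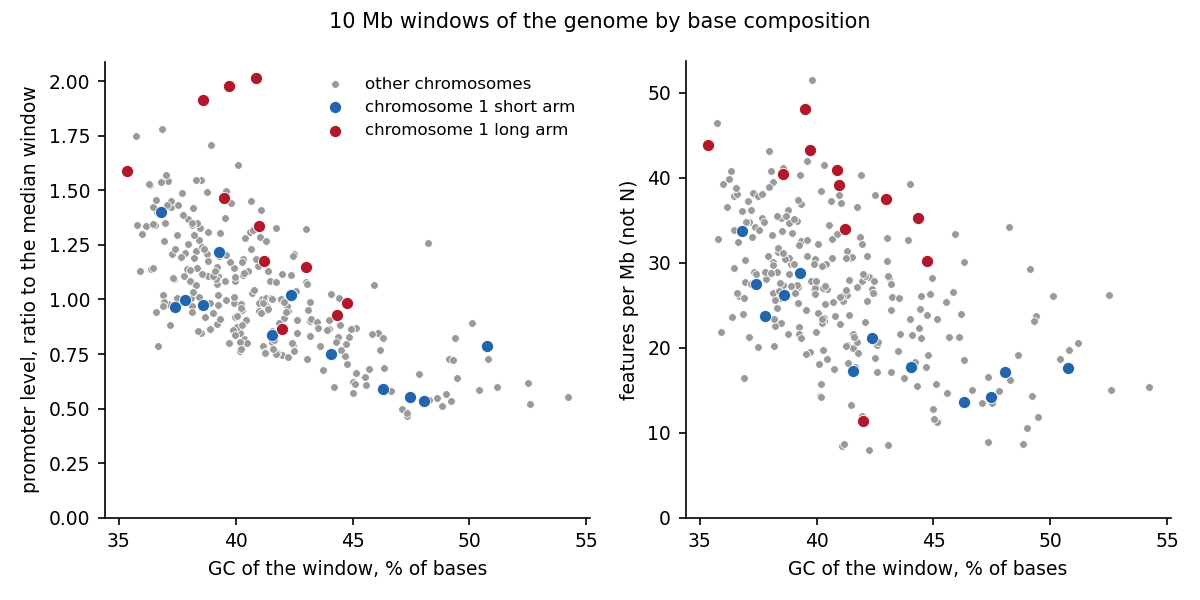
Window ratio (left, mean nuclei per promoter feature over the median window) and features per Mb of bases that are not N (right) against the GC content of the window in percent, for 10 Mb windows of both arms and of the other chromosomes. Each point is 1 window. The long arm windows with ratios of 1.91 to 2.01 lie above all windows of similar GC, and the short arm windows lie within the cloud.

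The arms kept their order at matched base composition of the features themselves. The GC content of a promoter feature had a median of 58.6% on the long arm, 60.7% on the short arm and 60.1% elsewhere, and its number of CpG dinucleotides a median of 59.5, 68 and 67. All promoter features were divided into 4 classes of equal size by GC. From the lowest to the highest class, the long arm had means of 7.91, 12.5, 13.7 and 11.4 nuclei and the short arm 6.17, 6.93, 8.57 and 6.28, where the other chromosomes had 6.18, 9.54, 9.56 and 8.68. The ratio of the arms was thus 1.28, 1.80, 1.6 and 1.82. In the lowest class the short arm matched the other chromosomes, with 0.997 of their mean. For features with no start, divided in the same way, the ratios of the arms were 1.27, 1.13, 1.27 and 1.43.

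**Figure D4:**
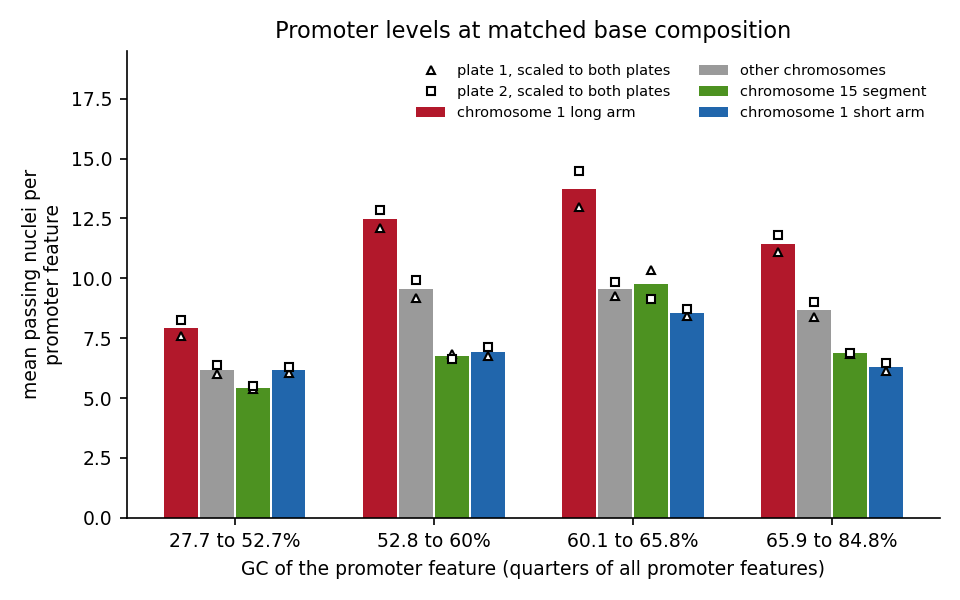
Mean number of passing nuclei per promoter feature (bars, y axis from 0) in 4 classes of equal size by GC content of the feature, for the long arm, the other chromosomes, the chromosome 15 stretch and the short arm. Triangles and squares give plates 1 and 2, scaled to 162 nuclei. The long arm bar is the highest in each class, by 1.28 to 1.43 times over the other chromosomes.

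A stretch of chromosome 15 gave a further value for scale. HAP1 is known to carry a segment of chromosome 15 in 2 copies while most of its genome is in 1, and the stretch from 62000000 to 89000000 lies within that segment. Its 210 promoter features were seen in 7.54 passing nuclei on average, beside 7.27 for chromosome 15 as a whole and 11.2 for the long arm of chromosome 1. It held 27.9 features per Mb and, at 43.9%, was richer in GC than the long arm (40.9%) and the short arm (42.5%). By GC class its means were 5.42, 6.74, 9.75 and 6.87 nuclei, between 0.71 and 1.02 times those of the other chromosomes. No copy number of chromosome 1 was measured here.

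The promoters seen in the most nuclei came from different places on the long arm. SUCO, a gene for a membrane protein of the endoplasmic reticulum with a role in bone formation, had its promoter feature (chr1:172532459-172533459) seen in 28 of 83 nuclei of plate 1 (33.7%, exact 95% interval 23.7% to 44.9%) and 31 of 79 of plate 2 (39.2%, 28.4% to 50.9%). The centre of this feature lies in an intron of SUCO. ZNF672, a zinc finger gene near the end of the arm, was seen in 23 (27.7%) and 30 (38%). The feature shared by TPR, which encodes a filament protein of the nuclear pore, and ODR4, at chr1:186374867-186375867, was seen in 25 (30.1%) and 27 (34.2%). DUSP10, a phosphatase of the stress-activated kinases p38 and JNK, was seen in 29 (34.9%) and 23 (29.1%). The feature between TRMT1L, related to tRNA methyltransferases, and SWT1, an RNA endonuclease, was seen in 22 (26.5%) and 28 (35.4%). The intervals of the 2 plates overlapped for each of these 5 features.

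The next long arm promoters were seen in 42 to 45 of 162 nuclei. The first of them were HLX, a homeobox transcription factor (45), and RNU5A-8P, a pseudogene of a spliceosomal RNA within an intron of HHAT (44). DESI2 (43), the pseudogene CLK3P2 (43) and EDEM3, which trims sugars of misfolded glycoproteins (42), came after them. The RNU5A-8P feature differed from the others in composition, with a GC content of 38.4% and 11 CpG dinucleotides, where the other 9 had at least 54.4% and 58. Outside the paired wells, the 10 promoters were seen in 21 to 33 of 91 nuclei. SUCO, TPR, TRMT1L and EDEM3 all lie between 170 and 190 Mb, in the windows with ratios of 1.98 and 1.91, and ZNF672, DESI2 and CLK3P2 lie in the last window.

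The 10 highest short arm promoters lay between 48 and 76 Mb with 1 exception. The feature of LEPROT, which affects the surface level of growth hormone receptor, and LEPR, the leptin receptor, at chr1:65419886-65420886, was seen in 21 nuclei of plate 1 (25.3%) and 18 of plate 2 (22.8%). JUN, a subunit of the AP-1 transcription factor, was seen in 20 (24.1%) and 17 (21.5%), FGGY, a carbohydrate kinase, in 21 (25.3%) and 16 (20.3%), and MIER1, a transcriptional repressor, in 17 (20.5%) and 16 (20.3%). The feature shared by DAB1, an adaptor of reelin signaling, and OMA1, a mitochondrial protease, was seen in 27 nuclei in all. The following ones were LRRIQ3 with FPGT (26), LRIF1 (25), SPATA6 (24), ACADM, the medium-chain acyl-CoA dehydrogenase (24), and HOOK1 (23), of which LRIF1 is the exception. Over both plates the tenth long arm promoter, with 42 nuclei, was seen in more nuclei than the first of the short arm, with 39. Within plate 1 the lists met, since LEPROT and FGGY were seen in 21 nuclei, as were DESI2 and EDEM3, and CLK3P2 in 20.

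Features with no annotated start reached similar numbers. On the long arm the highest lay in no gene at chr1:248873812-248874812 and was seen in 28 nuclei of plate 1 and 26 of plate 2. The next lay in an intron of HHAT, a palmitoyltransferase of hedgehog proteins, at chr1:210482729-210483729 (16 and 24 nuclei), in no gene at chr1:189986217-189987217 (16 and 23) and in an intron of SLC9C2 at chr1:173506795-173507795 (23 and 15). The fifth, in no gene at chr1:182029356-182030356, was seen in 25 nuclei of plate 1 (30.1%) and 11 of plate 2 (13.9%). On the short arm the highest lay in no gene at chr1:70587644-70588644 and was seen in 21 and 17 nuclei. The other 4 of the short arm were seen in 21 to 31 nuclei in all. The long arm features in HHAT, in SLC9C2 and at chr1:189986217-189987217 and the first 4 of the short arm had a GC content between 33.9% and 43.2%.

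Of 34 listed long arm genes 28 had a promoter feature, with a median of 11.5 nuclei. Of 44 short arm genes 29 had one, with a median of 6. Among all protein-coding genes, 51.1% on the long arm and 43.7% on the short arm had a start within a feature. The median over all promoter features was 7. At least 10% of passing nuclei held 7 of the 28 and 1 of the 29, beside 10.5% of all promoter features. For a gene with several promoter features, the one seen in the most nuclei was taken. More of the long arm genes than of the short arm genes had several. Taking the maximum can raise a value, so these values are not directly comparable between the arms or with those over all promoter features.

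Of the cell cycle and DNA replication or repair genes, all 6 on the long arm had a promoter feature, with a median of 19 nuclei. EXO1, an exonuclease of mismatch repair, was the highest with 17 nuclei in plate 1 and 15 in plate 2, followed by DTL, which directs destruction of replication licensing factors, with 11 and 15, and CENPF, a kinetochore protein, with 11 and 11. NUF2, also of the kinetochore, had 9 and 7, NEK2, a centrosome kinase, 4 and 9, and CKS1B, a subunit of cyclin-dependent kinases, 4 and 7. On the short arm 8 of 10 had a promoter feature, with a median of 6.5. The highest was CDC7, the kinase that fires replication origins, with 8 and 5 nuclei, and the lowest was KIF2C, a microtubule depolymerase, with 2 and 0. CDC20, an activator of the anaphase-promoting complex, had 3 and 7.

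The transcription factor list had medians of 15.5 nuclei for 4 of 7 long arm genes and 9 for 6 of 9 short arm genes. ELK4, an ETS factor, was the lowest of the long arm with 3 nuclei in plate 1 and 5 in plate 2, and ATF3, a stress-induced factor, had 6 and 12. On the short arm JUN was the highest with 37 nuclei in all. TP73, a relative of p53, was the lowest with 3 and 2.

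Of the remaining lists, chromatin regulators had medians of 8.5 nuclei (8 of 9 long arm genes) and 5 (4 of 10 short arm genes), from POGZ with 3 to SMYD2, a lysine methyltransferase, with 14 on the long arm and from RERE with 3 to KDM4A, a histone demethylase, with 7 on the short arm. No promoter feature was kept for ARID1A, HDAC1, KDM1A, CHD5, PRDM2 and PHF13 of the short arm or for KDM5B of the long arm. Over all protein-coding genes, a start lay within a feature for 43.7% on the short arm and 51.1% on the long arm. Survival and growth signaling genes had medians of 7 and 6, all 5 on each arm having a promoter feature. PIK3C2B was the highest of the long arm with 13 nuclei and MDM4, an inhibitor of p53, the lowest with 2, while BCL10 had 16 and MTOR 3 on the short arm. Housekeeping genes, mostly of the proteasome, ribosome and respiratory chain, had medians of 10 (5 of 7) and 3.5 (6 of 10). The 5 long arm genes include EPRS1, an aminoacyl-tRNA synthetase that belongs to none of these groups, with 21 nuclei. On the long arm they ran from SDHC with 5 to COX20, an assembly factor of cytochrome oxidase, with 28. On the short arm they ran from RPL11, SDHB and ATP5PB with 3 each to PSMA5 with 11.

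Single nuclei were compared through the long arm share, the number of long arm features seen over those of both arms. The median over 162 nuclei was 66.5%, with quartiles of 60.8% and 73.4% and a range from 10.3% to 92.7%. The median was 66.7% in plate 1 and 66.4% in plate 2, and 67.7% outside the paired wells. The long arm was ahead of the short arm in 76 of 83 nuclei of plate 1 and 73 of 79 of plate 2. The long arm held 60.6% of the features of both arms in the first place, so these shares are a description. Nuclei were shallow, with a median of 160.5 features on both arms and a range from 25 to 1080. Over all read pairs of passing nuclei, 28971 of 43099 lay on the long arm, 67.2%, and 69.4% outside the paired wells. The exact 95% interval of the first share, 66.8% to 67.7%, covers counting error only and not the spread between nuclei.

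In the shallowest, middle and deepest 54 nuclei, the median long arm share was 66.9%, 65.1% and 68.6%, and its SD fell from 14.5 to 10.6 and 9.74 percentage points. Of the 105 nuclei with 100 or more features on both arms, 100 had more features on the long arm. Over the whole genome, the long arm gave a median of 6.13% of the features seen in a nucleus (quartiles 4.65% and 7.45%) and the short arm 3.03% (2.16% and 3.80%).

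**Figure D5:**
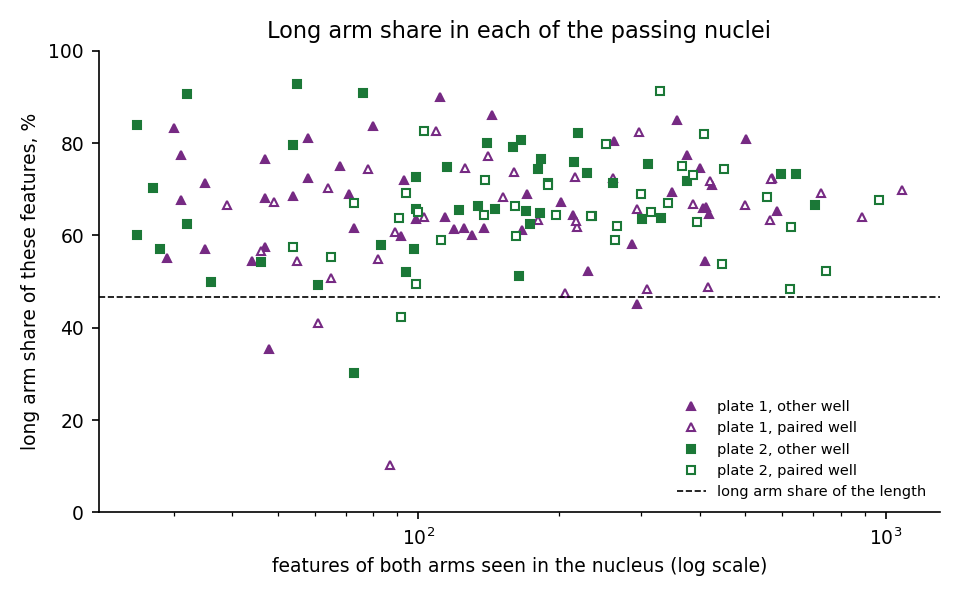
Long arm share of the features of both arms seen in a nucleus (y axis, percent) against their number (x axis, log scale), 1 point for each of the 162 passing nuclei. Triangles are plate 1, squares plate 2, and open symbols the paired wells; the dashed line is the long arm share of the length, 46.7%. Most nuclei of both plates lie between 60% and 75%, and the lowest share, 10.3%, belongs to a paired well of plate 1.

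The spread of the share over nuclei is given beside counting error as a description. The distance of each nucleus from the pooled share was divided by the SD that its number of features alone would give. The root mean square of these values was 3.12, and 2.74 outside the paired wells. Each of the 22 other chromosomes, divided at its middle feature, also spread more than counting error, by 1.16 to 2.66 times, and by 1.14 to 2.54 times outside the paired wells. The splits are not alike, and such a ratio can grow with the number of features per nucleus, so chromosome 1 was not ranked among them.

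Some single nuclei held runs of neighbouring features. In plate 1, nucleus 43 held 38 of the 54 features between 12 and 13 Mb of the short arm and 30 of the 36 between 10 and 11 Mb, out of 87 features on both arms, where the median passing nucleus held 0 in each of these bins. Nucleus 79, its paired well, held 37 and 31 of them. Nuclei 39 and 75 of plate 1, another such pair, held 30 and 25 of the 42 features between 3 and 4 Mb. Nucleus 43 was the one with the lowest long arm share, 9 of 87 features, and nuclei 39, 75 and 79 had 48.8%, 63.4% and 64%. These 4 nuclei were picked for runs on the short arm, so leaving them out lowers the short arm by construction. Without them the ratio of features per Mb was 1.84 and the ratio of nuclei per promoter feature 1.6. The long arm share of read pairs was then 67.9%, and the spread over counting error 2.96. A nucleus held 12 or more features of a 1 Mb bin 59 times over the 106 bins of the long arm and 24 times over the 121 bins of the short arm, counts that are not comparable as runs because the long arm has more features in a bin. On the long arm the most features of a 1 Mb bin in 1 nucleus were 19 of the 51 features between 170 and 171 Mb in nucleus 78 of plate 2, which had 969 features on both arms.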

How the data were processed

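Per the authors' methods, reads were trimmed, aligned to hg38 with bowtie2, filtered for mitochondrial, poorly mapped and duplicated reads, and peaks were called with MACS2 on all 192 nuclei together and widened around their summits. What the authors deposited are raw counts from featureCounts (version 1.6.0), 1 value for each feature and nucleus, with no normalization. Because the peaks were called on pooled nuclei, a stretch that gave more read pairs could also gain more peaks. A read pair that touched 2 features entered both. 0 columns of counts were left unmatched to a nucleus.

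The counts were binarized. Features seen in more than 1 of 192 nuclei were kept, and nuclei with more than 300 kept features passed. The short arm ran from 1000000 to 121700000 and the long arm from 143200000. Transcript starts, genes and exons came from GENCODE 44 and upstream sequences from RefSeq (GRCh38.p14), where 66 of 78 listed genes and 16 of 20 named promoters had an entry. GC content was read from hg38 after matching chromosome names. The 10 promoter features and 5 other features seen in the most passing nuclei on each arm were named, with ties in genome order, and the highest and lowest member of each list, except 1 gene that is not reported here. A position in a gene is that of the feature's centre. The members, the lists and most settings were chosen with earlier results of these data known. Alternatives covered filters on features and nuclei, read pairs, thinning to 600 read pairs, single plates, the paired wells, the definition of a promoter, the window size and the start of the long arm. Leaving out 4 nuclei with runs of features on the short arm and averaging over bands of window GC were added after seeing the data. Exact (Clopper-Pearson) 95% intervals cover counting error only, since the reads carry no molecular identifiers and may share molecules. Scripts were tested on simulated counts. The versions were pandas 2.3.3, NumPy 2.4.6, matplotlib 3.10.9 and SciPy 1.17.1 under Python 3.11.15. The comparison of labeled with unlabeled nuclei and the other experiments of the study were not analysed here.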

Additional observations from a re-analysis of the deposited data

Results flagged for a closer look

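Some data lay outside the comparisons and held read pairs. The 30 nuclei that did not pass gave 366 features on both arms in 29 of them, of which 60.4% (exact 95% interval 55.2% to 65.4%) lay on the long arm, and they had at most 305 read pairs each. The 12 features up to position 1000000 of chromosome 1, left out by the rule, held 799 read pairs in passing nuclei, and the highest of them was seen in 132 of 162. The rule leaves this end out because it holds a copy of mitochondrial DNA. That highest feature, chr1:633528-634528, held 587 of the read pairs and overlaps the mitochondrial pseudogenes MTATP8P1, MTATP6P1 and MTCO3P12, and reads from mitochondria and from this copy cannot be told apart in the counts. The 4 features between the arms held 10 read pairs, and none was seen in more than 3 nuclei.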

How the results depend on the processing

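In 66 alternatives for 7 results, 0 values changed direction and 34 stayed within a limit. The arms were chosen by measured values of these same nuclei, so an unchanged direction does not show stability. The limit was counting error or the SD over the plates, and for the count of windows a fixed factor. That count had no direction to change. Where the plates set that limit, a single plate mostly falls within it by construction, so those settings do not show stability. The ratio of features per Mb (1.75) was 1.88 in plate 1 and 1.88 in plate 2, each with its own filter, 2.10 without the paired wells, 2.24 and 3.31 for features seen in at least 5 and 10 nuclei, 1.41 for promoter features and 1.86 for the others. The ratio of nuclei per promoter feature (1.58) was 1.51 for features centred within 1 kb of a start, 1.43 for features seen in at least 5 nuclei, 1.65 with read pairs, 1.33 with the median, 1.63 without the paired wells, 1.32 over all features, 1.63 over equally weighted GC classes and 1.46 over equally weighted bands of window GC. The share of read pairs (67.2%) was 69.4% without the paired wells, 71.2% and 77.6% for features seen in at least 5 and 10 nuclei and 67.9% without the 4 nuclei picked for runs on the short arm. The median share over nuclei (66.5%) was 66.8% for nuclei with more than 1000 features, 67.5% with read pairs, 67.7% without the paired wells and 67.2% after thinning, which 146 nuclei allowed. The spread over nuclei (3.12) was 3.28, 3.70 and 2.74 in the first 3 of these settings and 2.96 without those 4 nuclei. The count of long arm windows over the median by more than 25% (6 of 11) was 11 of 21 with 5 Mb windows, where 23.4% of all windows passed, and 5 of 11 over all features, where 3.31% did. The ratio of widely seen promoter features (4.09) was 1.73 at 5% and 5.48 at 20% of nuclei, 3.75 in plate 1 and 3.30 in plate 2. The cause of these shifts was not tested. A filter on nuclei per feature uses the measure itself, and the features that pass it are not all members. Nuclei were not paired between the plates, because the nucleus numbers name wells. The 2 arms were counted in the same nuclei, and no test was made.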
